A study of Mus musculus with 9 samples.

Results

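The prostaglandin and leukotriene synthesis genes are 10 genes that carry arachidonic acid from the membrane to its main inflammatory mediators. They were taken by name for their place in the pathway, with earlier results of these data known, as Pla2g4a, Ptgs1, Ptgs2, Ptges, Ptgds, Hpgds, Alox5, Alox5ap, Lta4h and Ltc4s. All 10 were found by symbol among the 52550 genes of the count table, and all 10 were among the 18699 genes with enough counts to be tested. RNA was sequenced from the spinal cord of 9 adult female C57BL/6N mice, 3 per group, 7 days after surgery. The Sham group had a laminectomy with the cord left intact. The SCI group had a contusion of the cord at T10 and injections of the vehicle dimethyl sulfoxide. Mice of the SCI+FIPI group had the same contusion and were injected with FIPI, an inhibitor of phospholipase D, dissolved in that vehicle. No vehicle injection is described for Sham mice, so the effects of contusion and of vehicle cannot be told apart in comparisons with Sham. The question put by the design was how blocking phospholipase D alters gene expression in the injured cord.

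Eicosanoid synthesis starts when a phospholipase A2 frees arachidonic acid from membrane phospholipids. Cyclooxygenases turn it into prostaglandin H2, from which terminal synthases make prostaglandins E2 and D2, prostacyclin and thromboxane. Along the other branch a lipoxygenase and its helper protein make leukotriene A4, which is hydrolysed to leukotriene B4, an attractant of leukocytes, or joined to glutathione to give the cysteinyl leukotrienes. Both branches are well known in damaged nervous tissue, where myeloid cells, endothelium and glia can all express parts of the pathway.

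Total counts lay between 20806000 and 24582377 per mouse, and the chi-square per gene between mice of the same group, between 6.59 and 12.7, was above that of sampling noise. The p-values measure the spread between these 3 numbered samples per group. Levels are CPM, the count of a gene relative to the library total after scaling by TMM factors, unless stated otherwise. Markers of neurons, oligodendrocytes and astrocytes were present in all 9 mice, and their summed levels in Sham lay apart from those in both injured groups. Between the injured groups the oligodendrocyte and astrocyte sums overlapped. Among the astrocyte markers Gfap went from 4140 CPM in Sham to 9620 in SCI and Slc1a2 from 2340 to 1330, while Slc1a3 stayed at 127. A gene was called higher or lower when its log2 fold change was at least 0.5 in size and its p-value from the quasi-likelihood test of edgeR, adjusted over all genes tested by Benjamini-Hochberg, was under 0.05.

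Contusion was accompanied by higher RNA levels in both branches of the pathway. Comparing SCI with Sham, 8 of the 10 genes rose, from 1.69-fold for Pla2g4a to 7.2-fold for Ltc4s, the glutathione-joining enzyme. Ptgds, one of the 2 prostaglandin D synthases, fell to 0.542 of its Sham level, and Lta4h stayed under the fold limit. Of all genes tested 47% were called, 24.4% as higher and 22.5% as lower, and that is the background for these counts. The SCI mice lay wholly above the Sham mice in 9 of the 10 genes and wholly below in 1, where 70.5% of all genes lay apart, 35.6% on the higher side and 35% on the lower. The median log2 fold change was 1.83 over the 10 genes and 0.00 over all genes. In bulk tissue a change in the number of cells of a type and a change in RNA per cell cannot be told apart.

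**Figure D1:**
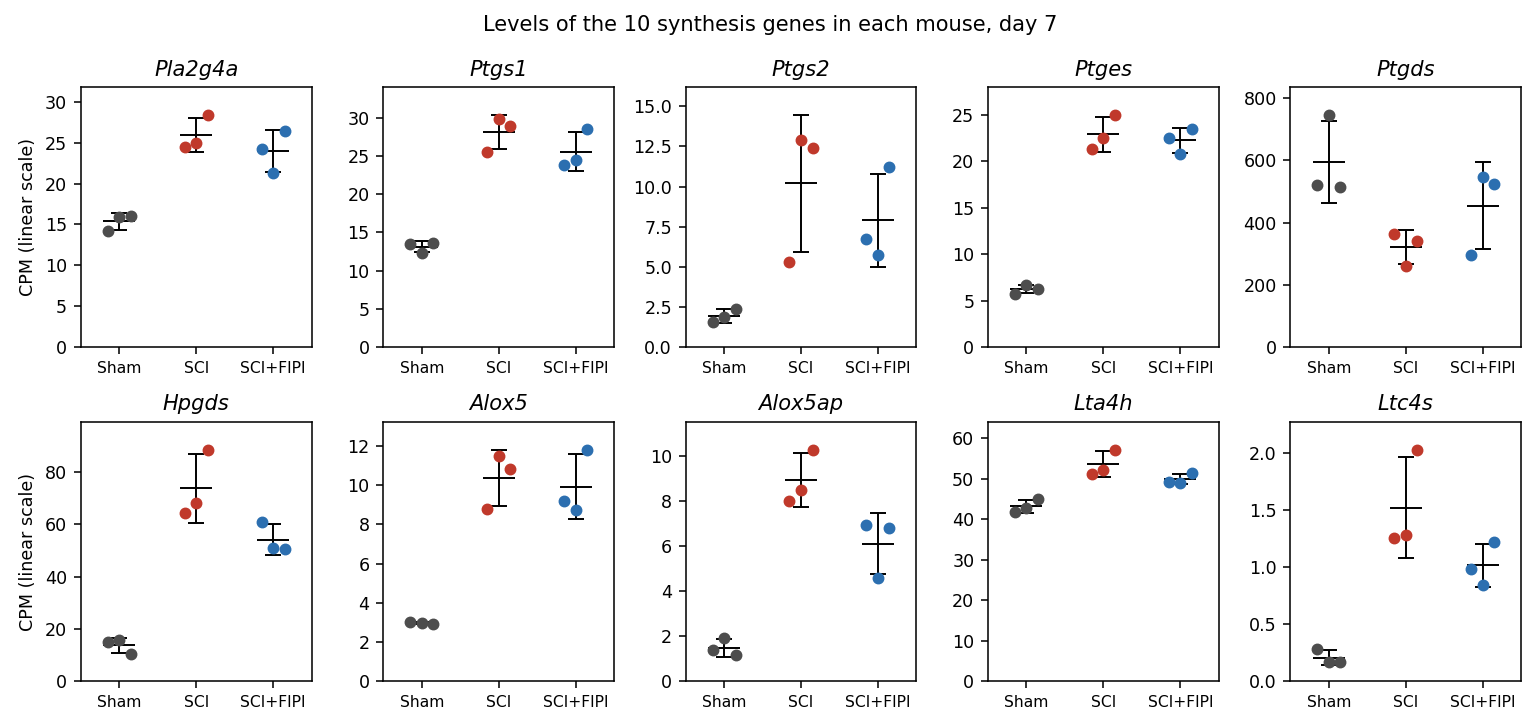
Level of each of the 10 genes in every mouse, in CPM on linear axes that start at 0, with 1 panel per gene. Points are mice, horizontal lines are group means and vertical bars are SD (n = 3). In 8 panels both injured groups sit above Sham, Lta4h moves little, and Ptgds has its lowest group mean in SCI, with overlap between the injured groups.

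Pla2g4a encodes cytosolic phospholipase A2, the enzyme that releases arachidonic acid. It lies on chromosome 1 (GRCm38, 149829618 to 149961290, minus strand). Its level was 14.2, 15.9 and 16 CPM in the Sham mice, 24.5, 25 and 28.4 in the SCI mice, and 24.2, 21.3 and 26.5 in the SCI+FIPI mice. Every injured mouse was thus above every Sham mouse, while the injured groups overlapped. The log2 fold change was 0.76 (SE 0.0983, adjusted p = 7.61e-06) for SCI against Sham. Between the injured groups it was -0.11, with a 95% interval from -0.32 to 0.09 (adjusted p = 0.505).

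Ptgs1 and Ptgs2 encode the 2 cyclooxygenases, of which Ptgs1 is usually described as constitutive and Ptgs2 as inducible. Ptgs1 lies on chromosome 2 (36230426 to 36252272, plus strand), and Ptgs2 lies on chromosome 1 (150100031 to 150108227, plus strand), just beyond Pla2g4a. Ptgs1 measured 13.5, 12.3 and 13.6 CPM in Sham, 25.6, 29.9 and 28.9 in SCI, and 23.8, 24.5 and 28.5 in SCI+FIPI. Its rise over Sham was 1.10 on the log2 scale (SE 0.0956, adjusted p = 1.11e-07). A gene on the opposite strand, Gm43621, overlaps 148 exonic bases of Ptgs1. Ptgs2 was scarcer and more uneven, at 1.53, 1.86 and 2.38 CPM in Sham, 5.28, 12.9 and 12.4 in SCI, and 6.71, 5.76 and 11.2 in SCI+FIPI. The first SCI mouse had less than the other two, and the coefficient of variation in that group was 41.7%. Ptgs2 rose by 2.39 on the log2 scale (SE 0.429, adjusted p = 0.00126), with the largest standard error of the 10 genes. Between the injured groups the difference was -0.14 (interval -0.33 to 0.06, adjusted p = 0.381) for Ptgs1 and -0.37 (interval -1.23 to 0.49, adjusted p = 0.596) for Ptgs2. The wide interval of Ptgs2 included a fall of 2-fold.

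To show the DNA ahead of the starts of these genes, promoter sequence was read from RefSeq (assembly GRCm38.p6), which had an entry for 9 of the 10. In 4 of these genes part of the 250 bases before the RefSeq start lies in exons of the GENCODE annotation, 183 bases for Ptgs2, 178 for Hpgds, 93 for Ptgds and 84 for Ltc4s, and the stretches shown for Ptges, Hpgds and Ptgds lie within the span GENCODE gives the gene. The 250 bases before each start were searched on both strands for GAGGAAGT (a form bound by the myeloid factor PU.1), TGACTCA (AP-1), ACGTCA (the core of the cAMP response element), CACGTG (E-box) and GGGCGG (GC box). The pieces below are 5′ to 3′ on the strand of the gene, with the matched letters in capitals. The Ptgs1 piece, chr2:36230326-36230425 on the plus strand, ends at the base before the start and holds GAGGAAGT at positions -24 to -17.
Ptgs1: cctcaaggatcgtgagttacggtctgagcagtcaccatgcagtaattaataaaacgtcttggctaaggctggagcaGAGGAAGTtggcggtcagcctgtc
Of 32851 windows of that length, 2.44% held these letters, and among the 9 genes Hpgds was the other one to hold them. Ptgs2 had GGGCGG at -170 to -165 and none of the other 4 motifs. A match is a description of the letters alone, and binding was not measured.

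Ptges, Ptgds and Hpgds encode terminal synthases. Ptges makes prostaglandin E2, the mediator of fever and inflammatory pain, and lies on chromosome 2 (30889471 to 30929863, minus strand). Its level went from 5.75, 6.69 and 6.27 CPM in Sham to 21.3, 22.5 and 25 in SCI and 22.5, 20.8 and 23.5 in SCI+FIPI. The rise after contusion, 1.87 on the log2 scale (SE 0.102), had the smallest adjusted p of the 10 genes (1.09e-09). The injured groups differed by -0.04, and the interval from -0.24 to 0.16 left room for small differences only (adjusted p = 0.839). The 100 bases before the start used by RefSeq, chr2:30903298-30903397 on the minus strand, hold GGGCGG at 2 places, -53 to -48 and -42 to -37.
Ptges: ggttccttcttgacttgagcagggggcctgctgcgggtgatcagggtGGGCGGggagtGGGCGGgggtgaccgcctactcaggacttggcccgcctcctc
GGGCGG was present in 32.7% of all windows, and Alox5 and Ptgs2 held it too.

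Prostaglandin D2 can be made by either of 2 unrelated enzymes, and their transcripts moved apart. Ptgds, the lipocalin-type synthase known from oligodendrocytes and the leptomeninges, lies on chromosome 2 (25466709 to 25470046, minus strand). Hpgds, the hematopoietic synthase known from mast cells, macrophages and microglia, lies on chromosome 6 (65117293 to 65144908, minus strand). Ptgds measured 522, 746 and 515 CPM in Sham, 364, 261 and 342 in SCI, and 295, 546 and 524 in SCI+FIPI. All SCI mice were below all Sham mice, whereas SCI+FIPI mice 2 and 3 lay in the Sham range and mouse 1 in the SCI range. The fall after contusion was -0.88 on the log2 scale (SE 0.282, adjusted p = 0.029). The call was lost in several alternatives, in some of which the fall was as large. With no filter on low counts it was -0.86 (adjusted p = 0.0669). Leaving out Sham mouse 2 gave -0.69 (adjusted p = 0.0865), and without SCI mouse 1, 2 or 3 the value was -0.98, -0.75 or -0.92 and the adjusted p 0.0525, 0.0879 or 0.0725. Treated against untreated injury, the Ptgds value was 0.50 (interval -0.18 to 1.17, adjusted p = 0.334).

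Hpgds measured 15, 15.9 and 10.4 CPM in Sham, 64.2, 68.2 and 88.4 in SCI, and 60.8, 50.8 and 50.6 in SCI+FIPI. The lowest SCI mouse had over 4 times the highest Sham level. The rise was 2.42 on the log2 scale (SE 0.183, adjusted p = 3.41e-06). All SCI+FIPI mice were below all SCI mice, the nearest pair at 60.8 and 64.2 CPM. The log2 fold change between these groups did not pass the test (-0.45, interval -0.82 to -0.07, adjusted p = 0.135). The adjusted p was 0.0219 with DESeq2, 0.0332 with no filter and 0.0483 without Sham mouse 3, each with a value of -0.45, under the fold limit. Without SCI mouse 3 the value was -0.29 (adjusted p = 0.336). Short stretches around the motif matches of the pair are shown for contrast. The Hpgds stretch is chr6:65144761-65144790, with GAGGAAGT at -49 to -42, and the Ptgds stretch is chr2:25469766-25469795, with TGACTCA at -35 to -29, both on the minus strand.
Hpgds: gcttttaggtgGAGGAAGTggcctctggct
Ptgds: gaggccaagccTGACTCAtaaatagggggt
TGACTCA was held by 4.46% of all windows and by no other gene of the 9.

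Alox5 encodes the lipoxygenase that starts leukotriene synthesis, and Alox5ap encodes FLAP, the membrane protein that presents arachidonic acid to it. Alox5 lies on chromosome 6 (116410077 to 116461178, minus strand) and Alox5ap on chromosome 5 (149264767 to 149288153, plus strand). Alox5 was even among Sham mice at 3.02, 2.98 and 2.93 CPM, and reached 8.76, 11.5 and 10.8 in SCI and 9.21, 8.73 and 11.8 in SCI+FIPI. Its rise was 1.80 on the log2 scale (SE 0.157, adjusted p = 1.16e-07), and the injured groups differed by -0.06 (interval -0.36 to 0.24, adjusted p = 0.839). The 100 bases before its start, chr6:116461179-116461278 on the minus strand, carry GGGCGG at -35 to -30.
Alox5: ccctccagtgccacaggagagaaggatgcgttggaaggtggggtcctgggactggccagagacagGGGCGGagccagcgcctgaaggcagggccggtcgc
Its partner Alox5ap measured 1.39, 1.94 and 1.17 CPM in Sham, 8.01, 8.52 and 10.3 in SCI, and 6.97, 4.58 and 6.84 in SCI+FIPI. The 3 groups did not overlap, with SCI+FIPI between the other two. The rise after contusion was 2.57 on the log2 scale (SE 0.219, adjusted p = 8.95e-08). The SCI+FIPI mice were 0.54 lower than SCI on that scale (-0.54, interval -0.94 to -0.14, adjusted p = 0.0826), past the fold limit and not the p limit. With limma-voom the value was -0.56 (adjusted p = 0.0464), and with no filter on low counts it was -0.55 (adjusted p = 0.0139), both past the limits. An antisense gene, Gm19719, overlaps 189 exonic bases of Alox5ap, and without a stated strand setting its reads could be shared.

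Lta4h hydrolyses leukotriene A4 to leukotriene B4, and Ltc4s conjugates it to glutathione. Lta4h lies on chromosome 10 (93453411 to 93484875, plus strand) and measured 41.7, 42.9 and 45 CPM in Sham, 51.2, 52.3 and 57.2 in SCI, and 49.3, 49.1 and 51.4 in SCI+FIPI. Its groups were tight and those of the injured mice lay above Sham, yet the log2 fold change of 0.31 (SE 0.0633, adjusted p = 0.000529) was under the fold limit. Its adjusted p alone passed, as it did for 65.9% of all genes. Ltc4s lies on chromosome 11 (50236461 to 50238616, minus strand) and was the scarcest of the 10, with 6, 4 and 4 counts in the Sham mice, 30, 31 and 48 in the SCI mice and 22, 20 and 29 in the SCI+FIPI mice. Those counts are 0.287, 0.173 and 0.167 CPM in Sham, 1.26, 1.28 and 2.03 in SCI, and 0.983, 0.848 and 1.22 in SCI+FIPI. Its rise of 2.85 on the log2 scale (SE 0.389, adjusted p = 1.26e-05) was the largest fold of the 10 and is based on few reads. An antisense gene, Gm26542, overlaps 268 of its exonic bases. SCI+FIPI mice had less Ltc4s than SCI mice with no overlap (-0.58, interval -1.23 to 0.07, adjusted p = 0.257), and Lta4h differed by -0.10 (interval -0.24 to 0.03, adjusted p = 0.339).

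Treatment with FIPI was followed by values near those of untreated injury for Pla2g4a, Ptgs1, Ptges, Alox5 and Lta4h, and by lower values with wider intervals for Hpgds, Alox5ap and Ltc4s, none of them past both limits. In this comparison edgeR called 0 of the 10, where 3.06% of all genes were called, 2.36% as higher and 0.695% as lower. The unadjusted p was under 0.05 for 2 of them, Hpgds and Alox5ap, and DESeq2 called 0 and limma-voom 1, Alox5ap. The share of all genes at that unadjusted limit was not counted. That share is no less than the 9.63% whose adjusted p was under 0.05 at any fold. Of the 18699 genes tested DESeq2 called 648 and limma-voom 628. By sign, 9 of the 10 values were negative and 1, that of Ptgds, was positive. Their median was -0.12 on the log2 scale against 0.00 for all genes. The 3 genes whose groups did not overlap, Hpgds, Alox5ap and Ltc4s, were all lower in SCI+FIPI. Of all genes 30.2% lay apart, 14.5% in that direction. The same 3 genes had the largest rises after contusion, and because both comparisons use the SCI mice, a high SCI mouse raises one value and lowers the other. The summed level of 8 microglia and macrophage markers was 315 to 419 CPM in Sham, 1620 to 1940 in SCI and 1320 to 1500 in SCI+FIPI. Of these, Cd68 had the largest mean in both injured groups, with 29.5, 688 and 492 CPM in Sham, SCI and SCI+FIPI. P2ry12 did not follow, at 27, 27.8 and 28.1 CPM. Between SCI+FIPI and SCI, edgeR called 0 of these 8 markers, their median was -0.29 and 7 lay apart on the lower side. Their part in the results for Hpgds, Alox5ap and Ltc4s was not tested.

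**Figure D2:**
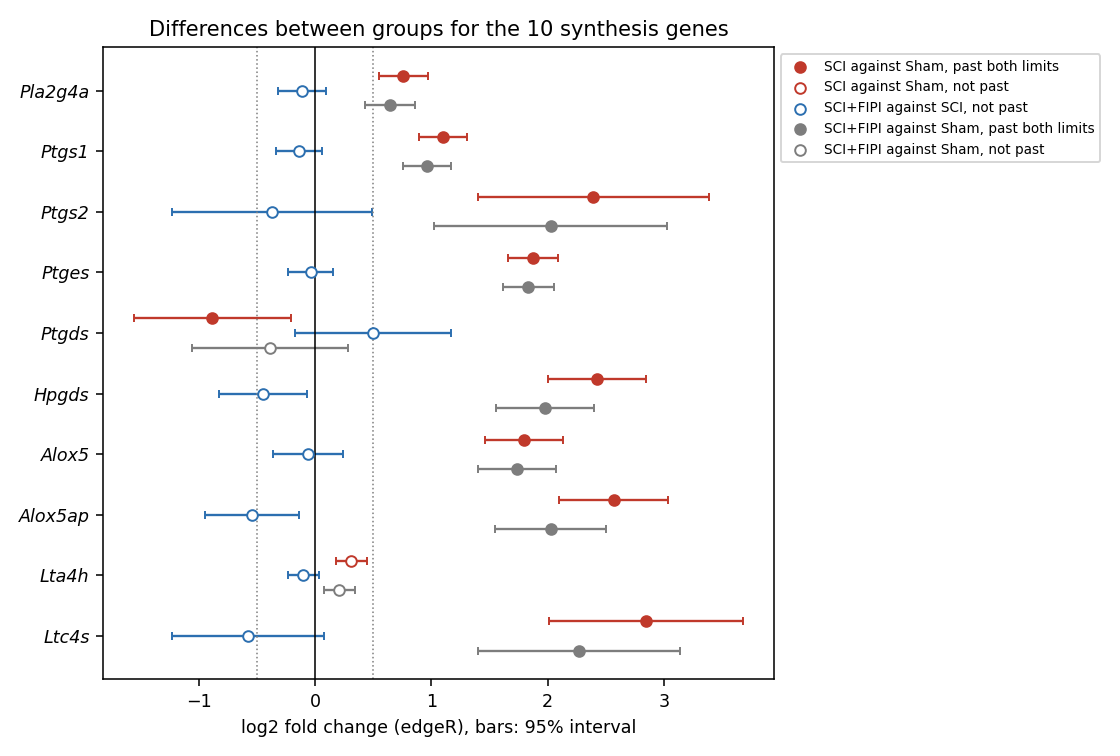
Log2 fold change of each of the 10 genes in SCI against Sham (red), SCI+FIPI against SCI (blue) and SCI+FIPI against Sham (grey), with 95% intervals from the edgeR fit over 9 mice and dotted lines at the fold limit of 0.5. Filled points passed both limits and open points did not, and 9 red, 0 blue and 8 grey points are filled, of which Ptgds in red is the one below 0.

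Set against Sham, the SCI+FIPI group had 8 of the 10 genes higher and 0 lower by edgeR, where 38.1% of all genes were called, 21.2% as higher and 17% as lower. The log2 fold changes beside those of the SCI group, which share the Sham mice, were 0.64 and 0.76 for Pla2g4a, 0.96 and 1.10 for Ptgs1, 2.02 and 2.39 for Ptgs2, and 1.83 and 1.87 for Ptges. For Hpgds they were 1.98 and 2.42, for Alox5 1.74 and 1.80, for Alox5ap 2.03 and 2.57, and for Ltc4s 2.27 and 2.85. The SCI+FIPI mice lay wholly above the Sham mice in 9 of the 10 genes, where 66.3% of all genes lay apart, 33.4% on the higher side. The genes not called were Lta4h at 0.21 (adjusted p = 0.011, a p that passed alone, as for 59.1% of all genes) and Ptgds at -0.39 (adjusted p = 0.281). Ptgds was the one gene of the 10 whose SCI+FIPI mice overlapped the Sham mice, and whether its fall differed between the treated and untreated injury is the SCI+FIPI against SCI value given above, which did not pass.

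Levels of different genes were compared per exonic length, as FPKM. Ptgds stood far above the rest in every group, at 364 ± 85.6 FPKM in Sham, 193 ± 32.9 in SCI and 277 ± 84.9 in SCI+FIPI (mean ± SD, n = 3). In Sham it was followed by Lta4h at 7.13 ± 0.253 and Ptgs1 at 3.4 ± 0.153, then by Pla2g4a at 2.42 ± 0.171, Hpgds at 2.16 ± 0.482 and Ptges at 1.6 ± 0.137, in which neighbours overlapped. Alox5ap at 1.07 ± 0.298, Alox5 at 0.73 ± 0.0173, Ptgs2 at 0.423 ± 0.0915 and Ltc4s at 0.208 ± 0.0667 closed the order without overlap between neighbours. After contusion Hpgds moved up to the second place at 11.3 ± 2 FPKM, ahead of Lta4h at 8.67 ± 0.522. Ptgs1 at 7.15 ± 0.551, Alox5ap at 6.21 ± 0.822 and Ptges at 5.75 ± 0.479 followed with overlap between neighbours, then Pla2g4a at 4.01 ± 0.325. Alox5 at 2.48 ± 0.334, Ptgs2 at 2.19 ± 0.913 and Ltc4s at 1.48 ± 0.427 came last, and neighbours among them overlapped. In SCI+FIPI the order was the same except that Ptges, at 5.68 ± 0.357, stood before Alox5ap at 4.33 ± 0.95. Hpgds at 8.44 ± 0.887 and Lta4h at 8.21 ± 0.228 overlapped there, and so did Alox5ap and Pla2g4a at 3.77 ± 0.414.

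Ratios within a mouse show how paired enzymes shifted against each other. Ptgds exceeded Hpgds by a median of 183 times in Sham (135 to 193), 15.1 times in SCI (14.9 to 22.1) and 40.3 times in SCI+FIPI (18.9 to 41.9). The Sham and injured ranges lay well apart, and those of the injured groups overlapped through SCI+FIPI mouse 1. Ptgs1 exceeded Ptgs2 by 7.79 times in Sham (6.74 to 10.4), 2.76 in SCI (2.73 to 5.72) and 4.19 in SCI+FIPI (3.01 to 5). Alox5ap exceeded Alox5 by 1.33 times in Sham (1.16 to 1.89), 2.64 in SCI (2.14 to 2.76) and 1.68 in SCI+FIPI (1.52 to 2.19), and here the SCI+FIPI range overlapped both others. Lta4h exceeded Ltc4s by 41.3 times in Sham (24.1 to 44.7), 6.77 in SCI (4.69 to 6.78) and 8.32 in SCI+FIPI (7.02 to 9.63), with little depth behind Ltc4s. Ratios are given as descriptions, without a test.

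**Figure D3:**
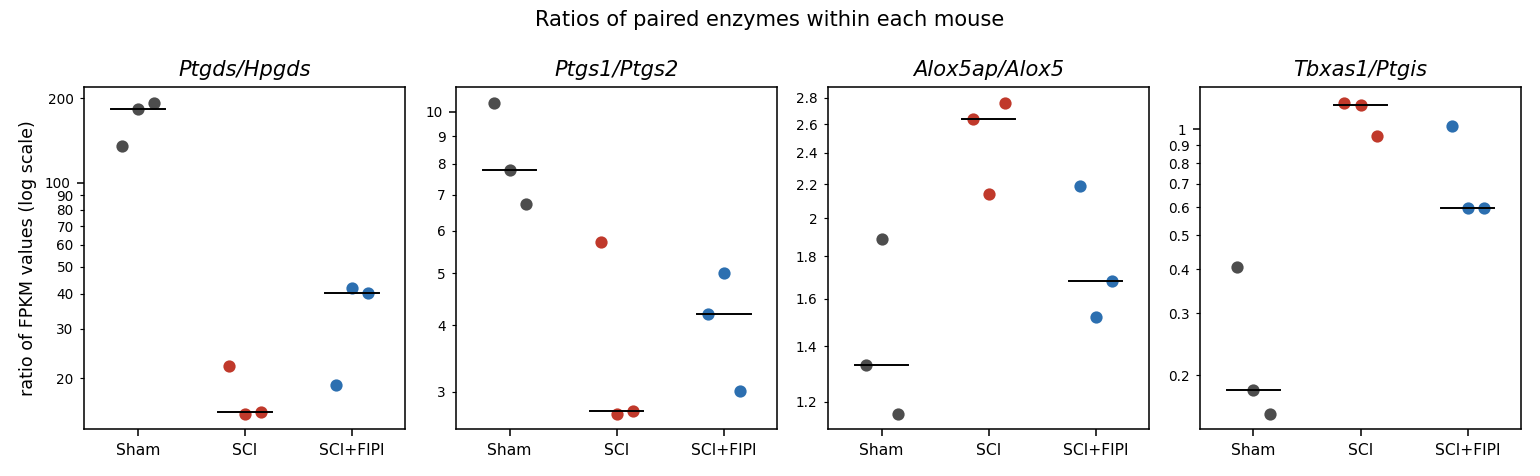
Ratio of FPKM values within each mouse, on log axes, for Ptgds over Hpgds, Ptgs1 over Ptgs2, Alox5ap over Alox5, and thromboxane synthase Tbxas1 over prostacyclin synthase Ptgis. Points are mice and lines are group medians (n = 3). The first 2 ratios are lower and the last 2 higher in the SCI mice than in the Sham mice, without overlap.

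The rest of the pathway was described from 6 lists of genes chosen by function, and each count after contusion is to be read against the 24.4% of all genes called higher and 22.5% called lower. Among 9 tested of 10 other prostanoid synthases and reductases, 5 rose and 1 fell after contusion, 66.7% in all (median log2 fold change 0.90). Tbxas1, thromboxane synthase, went from 6.01 ± 1.44 to 61.1 ± 5.08 CPM, a log2 fold change of 3.35 (SE 0.163, adjusted p = 1.8e-08). Ptgis, prostacyclin synthase, rose by 1.05 (adjusted p = 0.00128), and the ratio of Tbxas1 to Ptgis in FPKM had medians of 0.181 in Sham (0.155 to 0.407), 1.17 in SCI (0.96 to 1.19) and 0.597 in SCI+FIPI (0.596 to 1.02). The aldo-keto reductases Akr1b8 and Akr1b3 rose by 2.80 and 0.90 and Gstm2, a glutathione transferase, by 2.45, although Gstm2 shares 9.36% of its 50-base stretches with other genes. Fam213b, which reduces prostaglandin H2 to prostaglandin F2α, fell (-0.92, adjusted p = 1.05e-08). Between the injured groups edgeR, DESeq2 and limma-voom each called 0 of the 9, and 2 had an unadjusted p under 0.05, Tbxas1 and Fam213b. Of all genes edgeR called 3.06% there, and the share at that unadjusted limit was not counted.

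Among other phospholipases A2 and genes of arachidonate supply, 20 of 24 were tested, of which 4 rose and 5 fell with a median of -0.03. The share called, 45%, was close to the 47% of all genes. Pla2g15, the lysosomal phospholipase, went from 24.9 ± 1.98 to 108 ± 10.8 CPM (2.12, SE 0.0844, adjusted p = 8.54e-11). Lpcat3, which loads arachidonate into phospholipids, rose by 1.21, and Daglb, a diacylglycerol lipase, by 0.75; exons of both overlap another gene on the opposite strand. Pla2g2e had 0, 1 and 0 counts in Sham and 19, 9 and 15 in SCI, a ratio of 40.7 with a 95% counting interval from 6.93 to 1650 over the summed counts. That interval covers counting noise only and leaves out the spread between mice. The secreted Pla2g2f fell (-1.69, adjusted p = 0.00162), as did Pla2g4e, a relative of Pla2g4a (-1.61, adjusted p = 3.74e-06). Pla2g4e was higher with FIPI, at 2.59, 3.18 and 2.43 CPM against 1.47, 1.24 and 1.69 in SCI (0.90, SE 0.201, adjusted p = 0.0144). That call was lost without SCI mouse 2 (0.79, adjusted p = 0.0639) or SCI+FIPI mouse 2 (0.78, adjusted p = 0.0885).

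Other lipoxygenases and leukotriene enzymes had 12 of 14 tested, with 6 higher and 3 lower after contusion, 75% in all (median 0.81), beside 24.4% and 22.5% of all genes. The glutathione transferases Mgst2 and Mgst1 rose by 1.59 and 1.36. Their relative Mgst3, named after its values were seen, fell from 57.1 ± 1.05 to 29.6 ± 5.48 CPM. Dpep1, a dipeptidase that trims cysteinyl leukotrienes, rose by 3.01 (SE 0.392, adjusted p = 7.74e-06), and Dpep2 by 4.01, an uncertain value because 34.4% of its sequence occurs in other genes. The 3 genes that fell included the lipoxygenases Alox12b, with a log2 fold change of -2.11 (SE 0.434, adjusted p = 0.00057), and Alox8, with one of -1.96 (SE 0.15, adjusted p = 2.91e-08). Alox8 measured 11.6, 10.9 and 10.8 CPM in Sham, 2.94, 2.65 and 2.95 in SCI, and 4.74, 6.74 and 5.58 in SCI+FIPI, so the 3 groups were apart. With FIPI it was 1.00 higher on the log2 scale than in SCI (SE 0.154, adjusted p = 0.00307), and it was called in all 19 alternatives run for single genes. The neuron markers moved alike, with summed levels of 6500 to 7220 CPM in Sham, 1830 to 2620 in SCI and 3060 to 3670 in SCI+FIPI. Of those 9 markers 9 fell after contusion and 6 were higher with FIPI, beside 22.5% and 2.36% of all genes. The part of neurons in the results for Alox8, Pla2g4e and Cyp4f15 was not tested.

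All 14 genes of breakdown and transport were tested, of which 7 rose and 2 fell after contusion, 64.3% in all beside 47% of all genes (median 0.45). Hpgd, which starts the inactivation of prostaglandins, went from 16.8 ± 3.61 to 51.2 ± 4.2 CPM (1.60, SE 0.131, adjusted p = 4.73e-07). The next enzyme of that route, Ptgr1, rose by 2.73, the prostaglandin carrier Slco2a1 by 2.55 and the exporter Abcc4 by 0.80. Cyp4f18, a cytochrome P450 known to inactivate leukotriene B4, rose by 3.34 (SE 0.222, adjusted p = 3.37e-08), whereas its relative Cyp4f15 fell (-1.55, SE 0.228, adjusted p = 2.58e-05). Cyp4f15 measured 4.93, 4.97 and 3.89 CPM in Sham, 2.01, 1.49 and 1.18 in SCI, and 4.2, 2.8 and 3.65 in SCI+FIPI. It was 1.18 higher with FIPI (SE 0.231, adjusted p = 0.00854), the 1 call of the list by edgeR, beside 3.06% of all genes. DESeq2 and limma-voom each called 2, Cyp4f15 and Cyp4f18. Cyp4f18, named for this comparison after its values were seen, measured 17.9, 15.2 and 17.7 CPM in SCI and 12, 11.5 and 10.3 in SCI+FIPI (-0.59, interval -0.98 to -0.20, adjusted p = 0.0583 by edgeR).

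Apart from Gpr17, at 93.8 ± 6.19 CPM in Sham, the receptors for these mediators were scarce in Sham. Of 9 prostanoid receptors 8 were tested, with 5 higher and 1 lower after contusion, 75% in all beside 47% of all genes (median 1.11). Ptgir, the prostacyclin receptor, went from 0.568 ± 0.226 to 6.05 ± 0.755 CPM (3.39, SE 0.293, adjusted p = 1.07e-07), the largest value of the list. Ptger2 and Ptger4, receptors of prostaglandin E2, rose by 1.55 and 0.67, and the thromboxane receptor Tbxa2r by 1.52. Ptger3, another receptor of prostaglandin E2, fell from 2.3 ± 0.0907 to 1.07 ± 0.2 CPM (-1.10, SE 0.239, adjusted p = 0.00094). The value of Ptger4 is uncertain because 25.7% of its sequence is shared with other genes. Of 7 leukotriene and lipoxin receptors 5 were tested and 3 rose, or 60% (median 1.00). These were Cysltr1, a receptor of cysteinyl leukotrienes (1.64, adjusted p = 1.65e-05), Ltb4r1, the high-affinity receptor of leukotriene B4 (1.58, adjusted p = 0.000516), and Gpr17, known from oligodendrocyte precursors (0.74, adjusted p = 3.28e-07).

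With FIPI, edgeR called 0 of the 8 prostanoid receptors and 0 of the 5 leukotriene and lipoxin receptors against SCI. Unadjusted p-values under 0.05 were found for 2 and 3 of them. DESeq2 called 0 and 1, and limma-voom 1 and 1. Over all 18699 genes tested, edgeR called 3.06%, DESeq2 648 genes and limma-voom 628. The share of all genes at the unadjusted limit was not counted. The receptors called by DESeq2 or limma-voom, named after their values were seen, were Ptgir and Cysltr1. Ptgir measured 5.49, 6.91 and 5.74 CPM in SCI and 5.36, 2.97 and 3.36 in SCI+FIPI (-0.64, interval -1.13 to -0.15, adjusted p = 0.0946 by edgeR). Cysltr1 measured 3.4, 4.67 and 4.43 CPM in SCI and 3.26, 1.95 and 2.52 in SCI+FIPI (-0.69, interval -1.15 to -0.24, adjusted p = 0.0541 by edgeR). In both genes every SCI+FIPI mouse was below every SCI mouse, the nearest pair by a narrow margin.

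**Figure D4:**
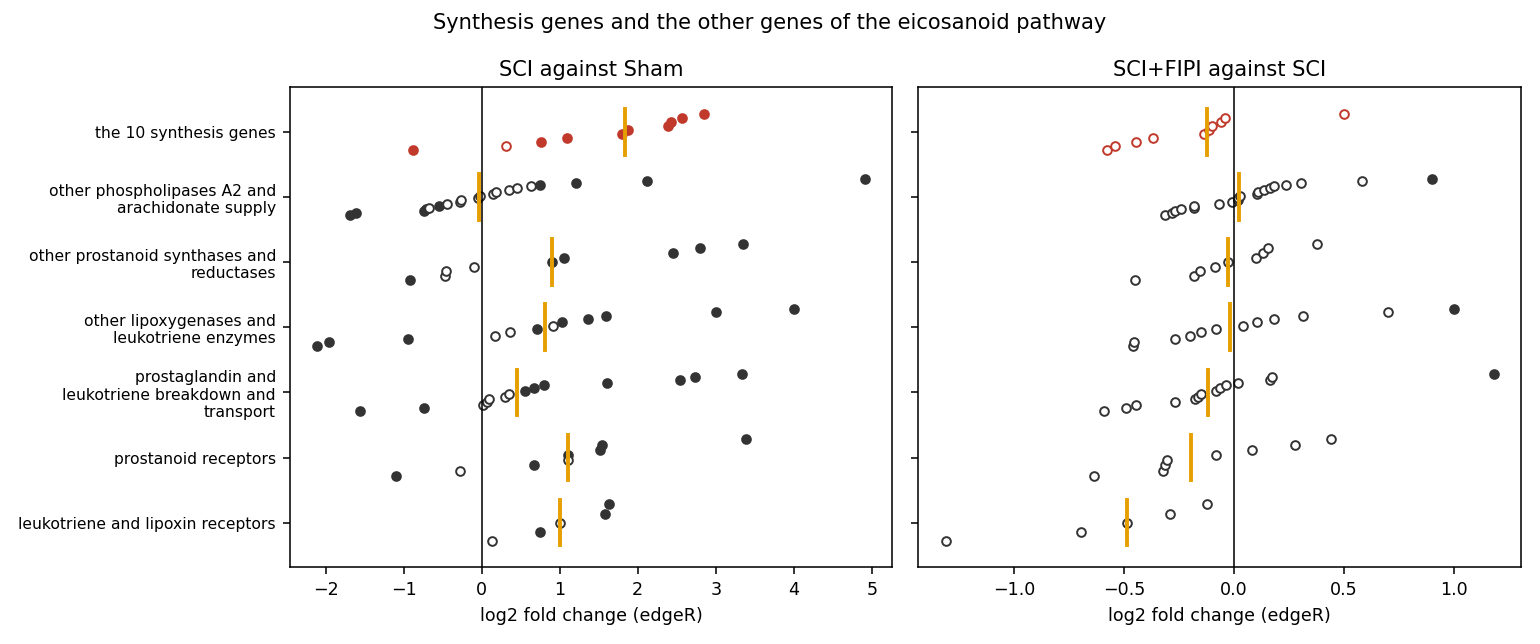
Log2 fold change of each tested gene of the synthesis set and the 6 other lists, in SCI against Sham and in SCI+FIPI against SCI. Each point is a gene, filled where it passed both limits, and orange lines are list medians. The median of the synthesis genes after contusion is 1.83 and those of the other lists lie between -0.03 and 1.11, while for SCI+FIPI against SCI the filled points are Pla2g4e, Alox8 and Cyp4f15.

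Markers of other cells the segment could hold were summed in the same way. Their counts after contusion stand beside 24.4% of all genes called higher and 22.5% called lower. Summed levels of 8 oligodendrocyte markers were 33000 to 34600 CPM in Sham, 23000 to 25700 in SCI and 23600 to 27900 in SCI+FIPI, with 5 of 8 lower after contusion. Within SCI+FIPI, mouse 1, in which Ptgds was low, had the lowest oligodendrocyte sum at 23650 CPM, against 26460 and 27940 in the other two. The other groups did not show this match. In Sham, mouse 2 had the most Ptgds, at 746 CPM, and the lowest oligodendrocyte sum, at 33020 CPM. In SCI, mouse 2 had the least Ptgds, at 261 CPM, and mouse 3 the lowest sum, at 23020 CPM. Of 8 markers of meninges and fibroblasts 6 were higher after contusion, with sums of 278 to 706, 6720 to 9320 and 6100 to 8210 CPM in Sham, SCI and SCI+FIPI. Most of that sum in SCI came from the collagen genes Col1a1 and Col1a2, at 4810 and 2880 CPM. By mouse, the sum was lowest in SCI+FIPI mouse 1, at 6104 CPM within its group, and highest in Sham mouse 2, at 706, as was Ptgds. In SCI it was highest in mouse 2, at 9315 CPM, where Ptgds was lowest. Slc22a6 did not rise, at 2.56 ± 1.85 CPM in Sham, 2.52 ± 1.61 in SCI and 4.68 ± 2.17 in SCI+FIPI. Neutrophil markers, whose cells express Alox5 and Alox5ap, summed to 38.7 to 109 CPM in Sham, 62 to 75.6 in SCI and 29.3 to 145 in SCI+FIPI, and 1 of 8 was higher after contusion. Within each group the mice ranked by this sum in the same order as by Ptgds. Of 6 mast cell markers 1 had enough counts to be tested, Hdc, at 3.11 ± 0.434 CPM in Sham, 5.94 ± 3.41 in SCI and 3.99 ± 1.13 in SCI+FIPI, and it was not called. The other 5 had at most 8 counts in any mouse. Tpsb2 had 0 counts in every Sham mouse, 3 to 8 in SCI and 2 to 7 in SCI+FIPI, Cma1 had 0 to 1, 3 to 7 and 0 to 3, and Mcpt4 was at 0 in every SCI and SCI+FIPI mouse. The summed level of the 6 was 2.67 to 3.93, 4.49 to 10.6 and 2.86 to 5.33 CPM. Of the 8 microglia and macrophage markers 7 rose after contusion, with a median of 1.98. The part of these cells in the values of Ptgds, Hpgds, Alox5 and Alox5ap was not tested.

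For each of the 10 genes, the 3 genes nearest in pattern over the 9 mice were found among 15046 genes, by the root mean square difference of log2 CPM after centring. Those nearest to Hpgds were Arhgap9, Naip6 and Il10rb, at 0.09 each. Alox5ap had Psd4, Espl1 and Otulinl (0.12 to 0.13), and Alox5 had Casp4, Surf4 and Fam167b (0.10 to 0.12). Pla2g4a had Tab2, Podxl and Vcl, Ptgs1 had Atf5, Mlxipl and Ppp4c, and Lta4h had Tada3, Rbbp7 and Txndc9, all within 0.07. Ptges was nearest to Tspan4, Efemp2 and Lpp (0.07 to 0.08). Ptgs2 had more distant neighbours, Esm1, Zfp36 and Gm14005 (0.20 to 0.27), and so had Ptgds, with Nkpd1, Mme and C2cd4c (0.13 to 0.18). For Ltc4s the values are compressed by the 0.5 CPM added before taking logs, and its neighbours Adamts1, Mgmt and Prokr1 (0.10 each) had smaller fold changes of 1.47 to 2.01 after contusion.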

How the data were processed

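Polyadenylated RNA of 9 spinal cords was sequenced by the study. The authors removed adapters and low-quality bases, counted reads per gene and deposited raw counts for 52550 Ensembl genes, without normalization. The submitters' processing notes name GRCm38 and R 4.2.3. The aligner, counting program and strand setting are not given in the sources used here, although the library protocol marks the second strand. Identifiers were matched to GENCODE M21 (52403 found).

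The analysis used edgeR 4.0.16 under R 4.3.3, with TMM factors, filterByExpr by group, and a robust quasi-likelihood fit with one mean per group over 9 mice (18699 genes). SCI, SCI+FIPI and Sham were compared in pairs. FPKM used the total count and exonic length. Limits of 0.5 (log2 fold change) and 0.05 (adjusted p) follow the study's methods, which name no test. The fit was tested on simulated data. Figures used Python 3.11.15 with matplotlib 3.10.9.

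The genes and lists were chosen with earlier results of these data known. The rule named all 10 synthesis genes, up to 6 called genes per list and comparison by fold change, and 3 nearest genes each (mean log2 CPM of at least 1). The alternatives tried were upper-quartile and RLE factors, no filter, at least 10 counts in every mouse, DESeq2 1.42.0, limma-voom 3.58.1, compared groups alone, GC and length offsets, a replicate block, each mouse left out, and other limits. Those for the other lists were added after seeing the data. The value of 1 called prostanoid receptor is not reported here.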

Additional observations from a re-analysis of the deposited data

How the results depend on the processing

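Of 566 alternative values for the 10 genes, 554 kept their direction and their side of the limits. For SCI against Sham the 6 losses were all of Ptgds, under no filter (-0.86, adjusted p = 0.0669), the replicate block (-0.85, adjusted p = 0.053) and without Sham mouse 2 or any SCI mouse, as given above, and the other 9 genes kept their call or its absence in every alternative fitted at these limits. For SCI+FIPI against SCI, Alox5ap passed in 2 alternatives, and the values near 0 of Alox5 and Ptges turned positive in 2 each. Over leaving out each mouse, Alox5 ranged from -0.2059 to 0.0224 and Ptges from -0.0855 to 0.0269. Alox5 was 0.0215 without SCI mouse 2 and 0.0224 without SCI+FIPI mouse 2, and Ptges was 0.0269 without SCI mouse 3 and 0.0069 without SCI+FIPI mouse 2. Ltc4s has no value under the filter of at least 10 counts, and DESeq2 gave it no adjusted p for SCI+FIPI against SCI. The causes were not tested.

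Over all genes, the number called for SCI against Sham was 8780, and 5059 at a log2 limit of 1. Between SCI+FIPI and SCI it was 572, with 1800 at no fold limit, 65 at a limit of 1 and 207 at an adjusted p under 0.01. Between SCI+FIPI and Sham it was 7128, with 11060 at no fold limit and 3376 at a limit of 1. Leaving out 1 mouse at a time gave 8373 to 8851, 189 to 1038 and 6675 to 7186 in these comparisons. For SCI+FIPI against SCI the count was 189 without SCI+FIPI mouse 2, 240 without SCI mouse 3, 341 without SCI mouse 2 and 1038 without SCI mouse 1. A leave-one-out fit leaves 2 mice in that group.

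The replicate numbers of the labels mark different animals. Correlations of same-numbered mice of different groups lay between -0.09 and 0.14, and those of differently numbered mice between -0.16 and 0.12. With 3 mice per group, these values cannot decide whether same-numbered mice shared anything besides the number. With the replicate number as a block the counts were 8744, 555 and 7115, and with the GC and length offsets as well 8630, 537 and 7001. For single genes 19 alternatives were run, none of which changed the limits. Of the 42 called genes of the other lists in SCI against Sham, 39 were called in every alternative that gave them a value. Pla2g2e had a value in 17, and Alox12b, Dpep1, Dpep2, Ltb4r1, Pla2g2f and Ptgir each in 18. Pla2g16, Alox12 and Ephx1 were each lost in some. Of the 3 in SCI+FIPI against SCI, Alox8 and Cyp4f15 were called in each of the 19. At a log2 limit of 1 the value of Alox8, 0.9990, would fall short. Depth limits Ltc4s, Pla2g2e and the receptors with few counts most.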
